A study of Mus musculus with 6 samples.

Results

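miR-221-3p and miR-222-3p (mmu-miR-221-3p and mmu-miR-222-3p on the array) are a pair of microRNAs (miRNAs, short RNAs that lower the output of mRNAs they pair with) made from neighbouring hairpin genes. They were taken by name from the 6 per-array signal tables and are 2 of the 1247 mouse miRNAs on each array. The study profiled 3 populations of tissue macrophages sorted from wild-type C57BL6/J mice, with no treatment, to find miRNAs enriched in microglia of the healthy adult brain. Microglia were sorted from brain as cells with intermediate CD45 that carried CD11b and F4/80 but neither Ly6C nor Ly6G. Macrophages of the colon were sorted on CD45, CD11b, CD11c and CD64, without Ly6C. Liver macrophages (Kupffer cells, KC) were sorted on CD45, CD11b, F4/80, CD64 and MHCII. All mice were male and 6 weeks old per the sample labels (6 to 8 weeks per the design text), and each group had 2 arrays, each with RNA from a separate pool of 4 to 6 mice.

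As background, a miRNA finds its targets mainly through its seed, the bases near its 5′ end, so that miRNAs with one seed share many predicted targets. miR-221 and miR-222 are known in human cells for repressing CDKN1B, an inhibitor of the cell cycle, and KIT, the receptor for stem cell factor. They are abundant in endothelial and vascular smooth muscle cells, and in mouse macrophages miR-222 has been tied to the dampened response after prolonged exposure to lipopolysaccharide.

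The sequences below show what the pair shares and where it differs, with the seed (bases 2 to 8, counted from the 5′ end) in capitals. They are RefSeq sequences on assembly GRCm38.p6, where both miRNAs lie on the minus strand of chromosome X, miR-221-3p at chrX:19146307-19146329 and miR-222-3p at chrX:19146901-19146923.
miR-221-3p: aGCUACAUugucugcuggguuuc
miR-222-3p: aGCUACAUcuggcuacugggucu
miR-1928: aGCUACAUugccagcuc
miR-221-5p: aCCUGGCAuacaauguagauuucugu
The first 8 bases of miR-221-3p and miR-222-3p are identical. Over all 23 positions 11 are identical and 12 differ, the first difference being U9C (miR-221-3p has the first base named, miR-222-3p the second). miR-1928, encoded on chromosome 1, is the only other mature miRNA in the RefSeq table with this seed. miR-221-5p, from the opposite arm of the miR-221 hairpin, has another seed.

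Both hairpins are shown with their annotated mature arms in capitals, since each arm has its own row on the array. The Mir221 gene spans chrX:19146294-19146388 and the Mir222 gene chrX:19146893-19146971, with 504 bases between them.
Mir221 hairpin: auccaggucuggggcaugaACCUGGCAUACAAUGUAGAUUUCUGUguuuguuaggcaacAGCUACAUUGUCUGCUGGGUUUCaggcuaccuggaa
Mir222 hairpin: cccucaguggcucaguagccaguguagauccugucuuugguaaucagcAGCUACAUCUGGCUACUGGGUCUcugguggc
On the minus strand the Mir222 hairpin precedes the Mir221 hairpin. In this RefSeq table each is a miRNA gene of its own.

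The arrays detected 300 to 403 of 1247 miRNAs, fewer on both microglia arrays (300 and 330) than on the other 4 (352 to 403). To compare arrays, each signal was divided by the 75th percentile, on its own array, of the 248 miRNAs that every array detected, then multiplied by the mean percentile; values below are in these scaled units or their log2. The lowest signal called detected was 2.71 to 4.33 scaled units, which is what limits the measurement of a dim miRNA. With 2 arrays per group, the number of arrays limits the precision of every comparison.

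miR-221-3p was detected on all 6 arrays and was lowest in microglia. Its scaled signal was 24.5 and 25.1 in microglia; colon macrophages gave 98.1 and 99.3, and liver macrophages 61.3 and 132. The microglia arrays lay below all other arrays, and the liver arrays lay on either side of the colon arrays. The scanner software's own error for these signals, in the same units, was 3.95 and 3.61 in microglia, 7.57 and 8.30 in colon and 5.11 and 10.03 in liver macrophages. The gap between the highest microglia array and the lowest other array was 2.44-fold, or 1.29 on the log2 scale.

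miR-222-3p was detected on all colon and liver arrays but not detected on either microglia array. Its scaled signal was 25.6 and 37.1 in colon and 22.2 and 42.1 in liver macrophages, at 7.60 to 10.6 times its own error. The lowest detected signal of any miRNA was 4.08 and 3.46 on the microglia arrays, so the level there is known only as a bound. In scaled units the 4 arrays with a signal stood in one order for both miRNAs: liver replicate 2, colon replicate 2, colon replicate 1, then liver replicate 1. The order of the colon arrays depended on the scaling. Unscaled, replicate 1 was above replicate 2 for both (125 and 86.9 for miR-221-3p, 32.7 and 32.5 for miR-222-3p).

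**Figure D1:**
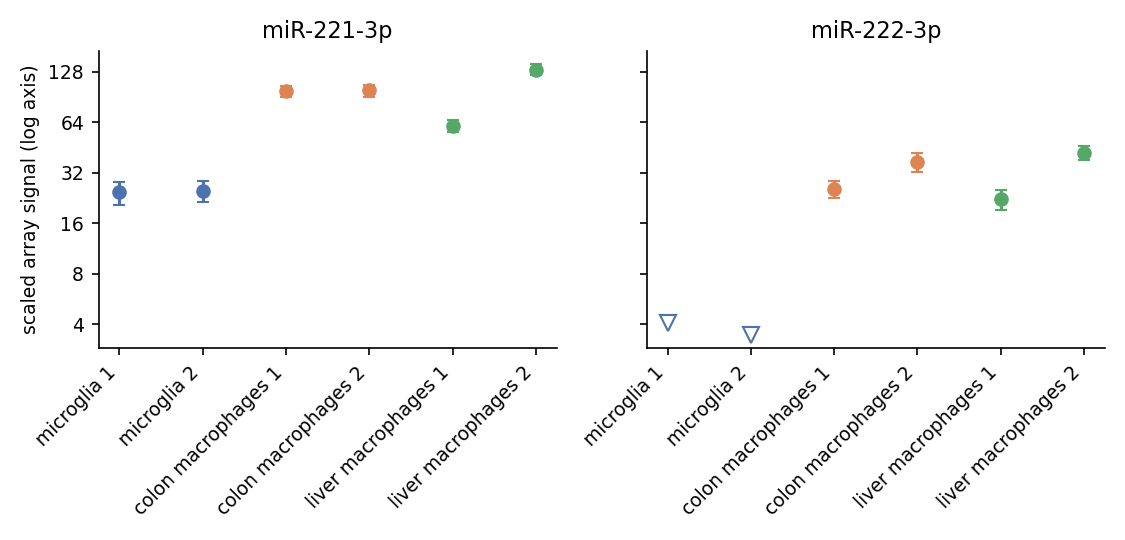
Scaled signal (log axis) of miR-221-3p and miR-222-3p on each of the 6 arrays; bars are the error that the scanner software gave for that array, and open triangles mark the lowest detected signal of an array on which miR-222-3p was not detected. The 2 microglia arrays sit below the other 4 in both panels, and the liver arrays lie farther apart than the colon arrays.

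The first comparison asked how microglia differ from colon macrophages, a population largely renewed from blood monocytes. Both miRNAs were lower in microglia. The log2 level of miR-221-3p was 4.63 ± 0.03 in microglia and 6.63 ± 0.01 in colon macrophages (SD, n = 2), which is 3.98-fold lower in microglia by a log2 change of -1.99 (SE 0.42, 95% interval -3.05 to -0.93, limma's test over 379 miRNAs, adjusted p = 0.0195). Against 4.95 ± 0.38 in colon macrophages, miR-222-3p in microglia was lower by at least 8.21-fold (adjusted p = 0.00362 in limma's test). This bound sets the colon mean against the mean lowest detected log2 signal of the microglia arrays, 1.91, whereas the test placed microglia at the common floor of 1.64, with an SD of 0 that comes from the floor. Undetected in microglia, miR-222-3p entered the test only through colon macrophages. With microglia at the floor it could only come out lower there, so its p-values and calls, here and below, add no support for the direction. In the authors' value table the same kind of bound was at least 3.0-fold, an alternative chosen after seeing the data, and the detection limit of the miR-222-3p probes themselves was not given.

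Of the miRNAs tested in this comparison, 28.5% were called lower in microglia, 17.7% higher and 46.2% in either direction, so that a call by itself was common. Over all tested miRNAs the median change was -0.43 on the log2 scale. Relative to it miR-221-3p lay at -1.57, and 24.5% of tested miRNAs had a lower change. miR-222-3p is given no such rank, since its change depends on the floor. The split of calls moved with the scaling: 67 higher and 108 lower here, 112 and 69 with median scaling, 103 and 62 with quantile normalization, 102 and 56 in the authors' value table, 29 and 108 unscaled, and 32 and 124 when scaled on the spike-in controls. The median change of all lay between -0.92 (spike-in controls) and 0.02 (quantile) under them. Under each of those 5 scalings both members were called lower, with log2 changes of miR-221-3p from -2.497 to -1.52.

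In the fit of 3 groups, the call of miR-221-3p rested on having both microglia and both colon arrays. The SE of 0.42 in that fit also drew on the liver arrays, whose SD was 0.78. With only microglia and colon arrays in the fit the SE was 0.16 (adjusted p = 0.00281 in limma's test). Leaving out microglia replicate 1, microglia replicate 2, colon replicate 1 or colon replicate 2 kept the log2 change between -2.01 and -1.97 but raised limma's adjusted p to 0.0871, 0.107, 0.134 and 0.116. Without liver replicate 1 or liver replicate 2 it was called, with adjusted p of 0.00257 and 0.00284 in limma's test. miR-222-3p was called lower with any 1 array left out, with adjusted p from 0.00776 to 0.0471. An exact permutation test of microglia against the other 4 arrays gave 2-sided p = 0.0667 for each miRNA, the smallest that the 15 splits allow.

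Liver macrophages, whose precursors also settle mostly in the embryo, gave the second comparison. Both miRNAs were again lower in microglia, and these values share the microglia arrays with those above. miR-221-3p was at 6.49 ± 0.78 in liver macrophages (SD, n = 2), 3.63-fold above microglia (log2 change -1.86, SE 0.42, adjusted p = 0.0172 in limma's test over 382 miRNAs). miR-222-3p was at 4.94 ± 0.65 in liver macrophages and at least 8.14-fold lower in microglia (adjusted p = 0.00308 in limma's test, with microglia at the floor). With the authors' value table this bound was at least 3.06-fold. Here miR-222-3p entered the test only through liver macrophages, so its direction was again fixed in advance.

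In this comparison 31.7% of tested miRNAs were called lower in microglia, 21.2% higher and 52.9% in either direction, and the median change of all was -0.60. miR-221-3p lay at -1.26 relative to that median. The overall split was 81 higher and 121 lower, against 124 and 108 with median scaling, 111 and 93 with quantile normalization, 109 and 87 in the authors' value table, 36 and 126 unscaled, and 29 and 163 when scaled on the spike-in controls. The median of all lay between -1.21 (spike-in controls) and -0.06 (authors' value table) under them, and both members were called lower under each of these 5 scalings. Without microglia replicate 1, microglia replicate 2, colon replicate 1 or colon replicate 2 the adjusted p of miR-221-3p in limma's test was 0.0822, 0.105, 0.0685 and 0.0735, and without liver replicate 1 or 2 the miRNA was called with a log2 change of -2.39 or -1.31. miR-222-3p was called lower with any 1 array left out.

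The third comparison, colon against liver macrophages, found no called difference for either miRNA, where 10.1% of 396 tested miRNAs were called in either direction (5.3% higher and 4.8% lower in colon). The split of 21 higher and 19 lower became 20 and 31 with median scaling and 8 and 16 with scaling on the spike-in controls. The log2 change was 0.13 for miR-221-3p (95% interval -0.93 to 1.19, adjusted p = 0.869 in limma's test) and 0.01 for miR-222-3p (95% interval -1.02 to 1.04, adjusted p = 0.989). These intervals reach about a 2.29-fold difference for miR-221-3p and a 2.06-fold difference for miR-222-3p in favour of colon, so likeness of the 2 populations is not shown.

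The liver arrays contributed most to the width of these intervals. For miR-222-3p the microglia arrays at the floor, with an SD of 0, also entered the spread. Its SE was 0.41, and 0.46 with only colon and liver arrays in the fit, so its interval may be too narrow. miR-221-3p was 2.16-fold and miR-222-3p 1.89-fold brighter on liver replicate 2 than on replicate 1, while the colon arrays differed by 1.01-fold and 1.45-fold. Over the 359 miRNAs detected on both liver arrays the median rise from replicate 1 to replicate 2 was 0.37 on the log2 scale, and 45 of them rose at least as much as miR-221-3p. Without liver replicate 1, miR-221-3p was called lower in colon than in liver macrophages (log2 change -0.39, adjusted p = 0.0451 in limma's test). Without liver replicate 2 it was called higher in colon (0.69, adjusted p = 0.0332). The direction between these populations therefore depended on which liver pool was used. In both of these fits the lone liver array was assumed to vary like the other groups.

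**Figure D2:**
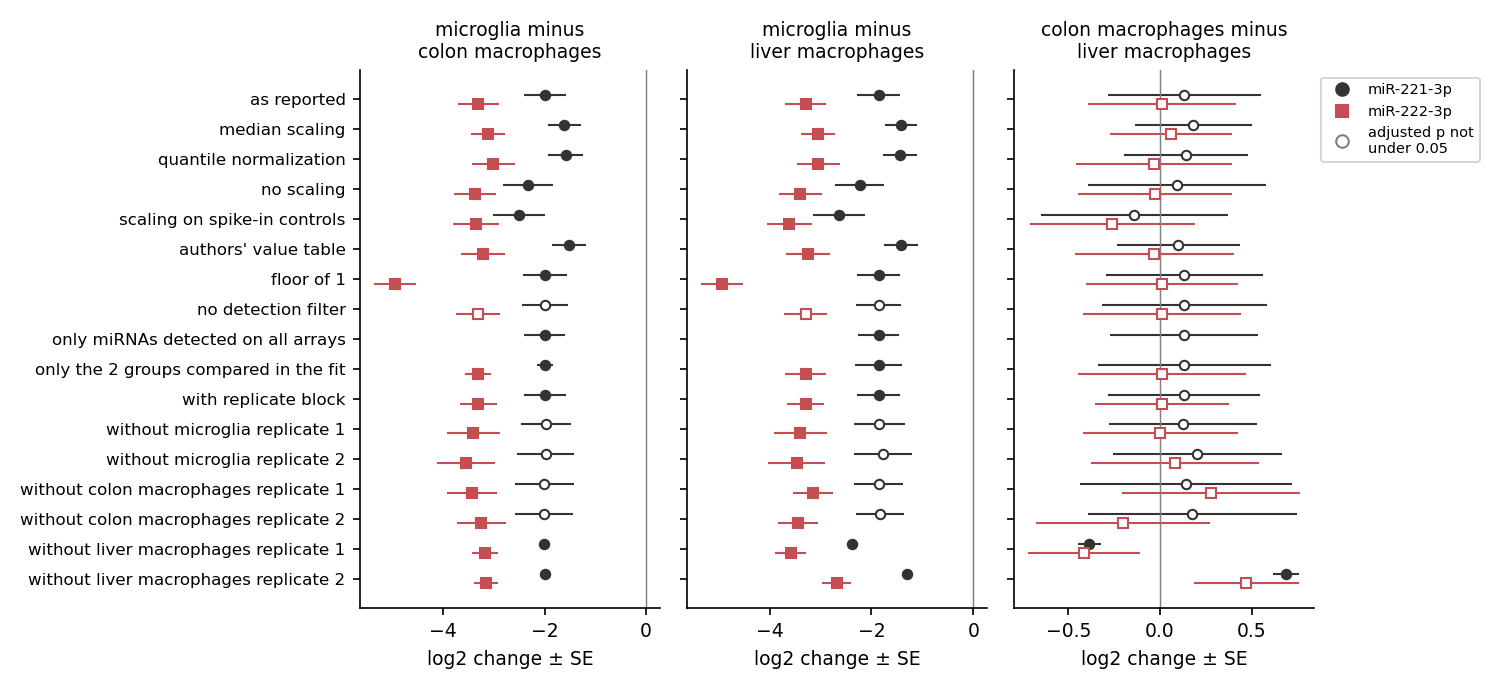
Log2 change ± SE of miR-221-3p (circles) and miR-222-3p (squares) in the 3 comparisons, as reported and under each alternative, with undetected miR-222-3p at the floor; filled symbols have an adjusted p under 0.05, and miR-222-3p has no value where the test was limited to miRNAs that every array detected. All points of both microglia comparisons lie below 0, while those of colon against liver macrophages lie on either side of it.

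Whether the pair moved by the same amount was asked from the difference between their log2 signals on each array, a quantity that no scaling factor of an array changes. It was -1.94 and -1.42 in colon and -1.46 and -1.65 in liver macrophages. On the microglia arrays, with miR-222-3p set at the lowest detected signal, it was at most -2.58 and -2.86, below the other 4 arrays. Against those 4 the mean lay 1.10 lower or more (exact permutation p = 0.0667, 2-sided, the smallest possible), and between colon and liver macrophages it differed by -0.12 (exact permutation p = 1).

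This separation was not seen in the authors' value table. There the lowest detected value was 3.67 and 2.84 (log2) on the microglia arrays, the bounds became -1.43 and -2.21, and the other arrays lay between -2.06 and -1.45 (exact permutation p = 0.867). The lowest detected signal is also taken over all miRNAs, and the limit of the miR-222-3p probes themselves was not given. A larger fall of miR-222-3p than of miR-221-3p is therefore not established.

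**Figure D3:**
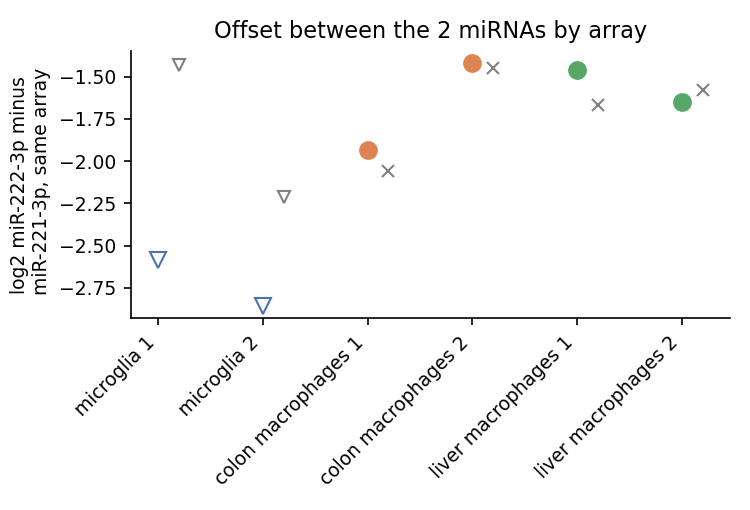
Difference between the log2 signals of miR-222-3p and miR-221-3p on the same array, for the scanner signals (coloured) and the authors' value table (grey); triangles are upper bounds on arrays where miR-222-3p was not detected. The scanner bounds of microglia lie under all other arrays, whereas the grey bounds overlap them.

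The other products of these genes gave no signal. miR-221-5p and miR-222-5p, the opposite arms, were detected on 0 of 6 arrays, as was miR-1928, the other miRNA with this seed in RefSeq. Among the RefSeq miRNAs with this seed, only miR-221-3p and, outside microglia, miR-222-3p were detected. Of the 1247 array miRNAs 1017 had a RefSeq mature sequence of the same name, and the rest were not checked for this seed. The nearest miRNA genes on chromosome X with a signal lay 11.3 to 11.9 Mb away, namely those of miR-1198-5p, miR-532-3p and miR-188-5p. None of these 3 was called against colon macrophages (log2 changes -0.13, 0.07 and -0.87), and miR-188-5p was lower in microglia than in liver macrophages (-1.41, adjusted p = 0.0301 in limma's test). That call was lost in the authors' value table and, of the 6 fits with 1 array left out, was made only without microglia replicate 2.

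The pair was set beside other miRNAs known to respond to inflammatory stimuli in macrophages. Of 12 such miRNAs on the array 10 were tested against colon macrophages, where 3 were lower in microglia, 2 higher and 5 did not pass, with a median change of -0.41 beside -0.43 for all tested miRNAs. Over all tested miRNAs 28.5% were lower and 17.7% higher, so these counts were near the background. The 3 lower ones were miR-223-3p, which restrains granulocyte production (log2 change -4.38), miR-132-3p, induced through CREB (-4.00 with undetected microglia replicate 1 at the floor), and miR-21a-5p, a miRNA abundant in many tissues (-2.36). miR-212-3p, the cluster partner of miR-132-3p, was detected on all arrays and did not pass (0.14 against colon and 0.12 against liver macrophages). The higher ones were miR-125b-5p (1.93) and miR-9-5p, also a neuronal miRNA. miR-9-5p was not detected in colon or liver macrophages, entered the test only through microglia, and was at least 3.30-fold and 4.12-fold higher there. miR-21a-5p passed in both microglia comparisons with either liver array left out, but not with a microglia or colon array left out.

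Against liver macrophages 3 of 10 were lower, the same miRNAs by name, with log2 changes of -3.56, -3.002 (again with 1 microglia array at the floor) and -2.47, and 4 were higher, beside 31.7% lower and 21.2% higher over all tested miRNAs. miR-146a-5p and miR-146b-5p, which dampen signalling from Toll-like receptors, were higher than in liver macrophages (1.31 and 2.77), whereas against colon macrophages they stood at 0.74 and -0.02 and did not pass. miR-155-5p, a driver of macrophage activation, stood at -0.86 and -1.26 and passed in neither comparison. The list's median was 0.30 against liver macrophages, beside -0.60 for all tested miRNAs; with miR-9-5p at its bound neither median changed. miR-146a-5p passed against liver macrophages in 3 of 5 other scalings and miR-132-3p likewise, and each passed in 2 of 6 fits with 1 array left out. Over 5 other scalings 3 to 4 list members were lower against colon and 2 to 4 against liver macrophages, and with each array left out 1 to 4 and 1 to 2.

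Other miRNAs known to promote cell proliferation, a role miR-221 and miR-222 have in human cells, were not called lower in microglia. Of 11 on the array, all tested, 5 were higher and 0 lower against colon macrophages in limma's test, and 8 were higher and 0 lower against liver macrophages. Over all tested miRNAs 17.7% were higher and 28.5% lower in the first of these comparisons, and 21.2% and 31.7% in the second. On this scaling each of the 11 changes was above 0 in both comparisons, so 0 were lower at an unadjusted p either; unscaled or scaled on spike-in controls, not every change was above 0. miR-17-5p of the miR-17-92 cluster rose by 1.38 and 1.67 and miR-181a-5p by 2.72 and 3.51 on the log2 scale. The number called higher ranged from 1 to 11 over the 5 other scalings in each comparison, and 0 were lower under any of them in limma's test. The list's median was 0.97 and 1.36, beside -0.43 and -0.60 for all tested miRNAs and -1.99 and -1.86 for miR-221-3p.

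**Figure D4:**
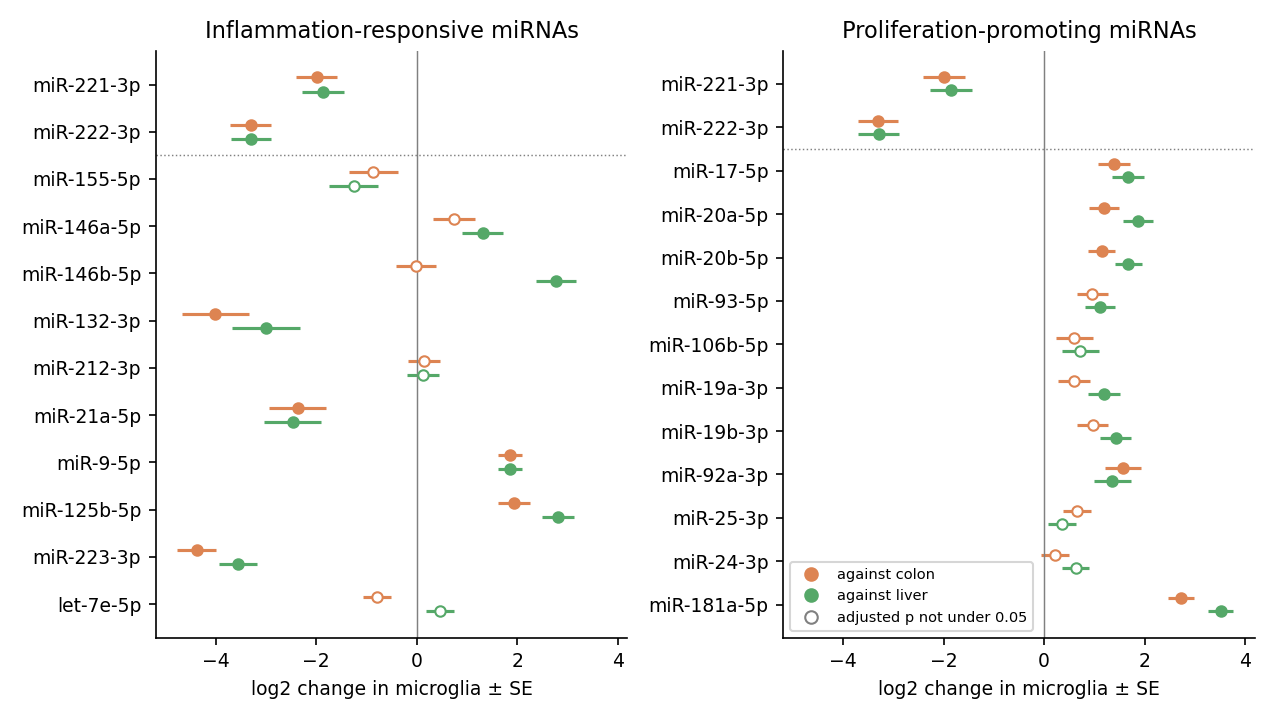
Log2 change ± SE in microglia against colon (orange) and liver macrophages (green) for miR-221-3p and miR-222-3p (above the dotted line) and for the tested members of both lists, undetected arrays at the floor; filled symbols have an adjusted p under 0.05. miR-132-3p, miR-21a-5p and miR-223-3p lie to the left with the pair, and the proliferation list lies to the right of 0 on this scaling, though not every member does when signals are unscaled or scaled on spike-in controls.

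The miRNAs whose profile over the 6 arrays was nearest to the mean of the pair were sought among 247 detected on all arrays. The measure was the root mean square difference of log2 levels centred on each miRNA's own mean, with undetected miR-222-3p at the floor. miR-21a-5p was nearest (0.23, r = 0.983 over 6 arrays), with log2 levels of 11.80 and 11.92 in microglia, 14.20 and 14.25 in colon and 13.50 and 15.16 in liver macrophages. Like miR-221-3p it was lowest in microglia, nearly equal on the colon arrays and far apart on the liver arrays, whereas miR-222-3p differed 1.45-fold between the colon arrays. It was followed by miR-5109 (0.27), miR-1306-3p (0.32), miR-5622-3p (0.34) and miR-681 (0.38), with r from 0.954 to 0.989.

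These likenesses are descriptions over 6 arrays that share pools and scaling, and 3 of the 5, miR-21a-5p, miR-1306-3p and miR-5622-3p, were among the nearest 5 in the authors' value table. That all 5 were lower in microglia follows from how they were chosen. The mature sequence is shown for the nearest, which is encoded at chr11:86584120-86584141 on the minus strand of GRCm38.p6, with its seed in capitals.
miR-21a-5p: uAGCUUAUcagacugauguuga
Neither it nor the 3 others with a RefSeq mature sequence share the seed of miR-221 and miR-222.

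**Figure D5:**
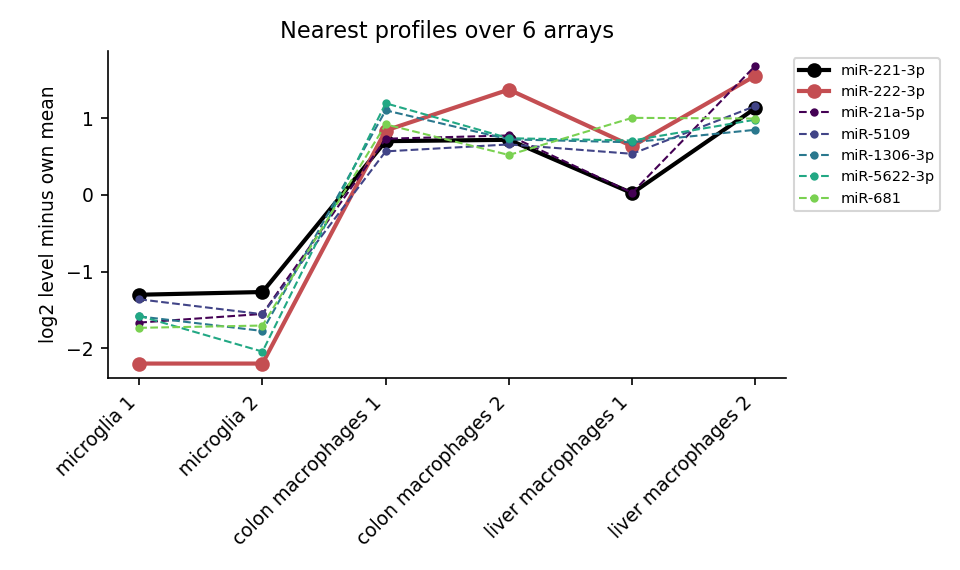
Log2 level minus the miRNA's own mean on each array for miR-221-3p, miR-222-3p (undetected microglia arrays at the floor) and the 5 miRNAs nearest to their mean profile; lines join arrays for reading only. All 7 are lowest on the 2 microglia arrays, and miR-21a-5p tracks the rise of miR-221-3p from liver replicate 1 to replicate 2.

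Because endothelial and smooth muscle cells are rich in this pair, markers of those cells are given beside it. In bulk samples, fewer cells of a type and less RNA per cell cannot be told apart. The summed scaled signal of both endothelial markers, miR-126-3p and miR-126-5p, was 35.6 on microglia replicate 1 (1 of 2 detected) and 0 on replicate 2. It was 220 to 247 in colon and 2631 to 4140 in liver macrophages. On the lower liver array this sum was 10.7-fold higher than on the higher colon array. The 6 smooth muscle and fibroblast markers summed to 43.7 on microglia replicate 1 (2 detected) and 0 on replicate 2 (0 detected). They summed to 485 to 714 in colon (6 detected) and 147 to 221 in liver macrophages (4 detected). The defining smooth muscle miRNAs, miR-143-3p and miR-145a-5p, were undetected in microglia and liver macrophages. These markers were lower in microglia as the pair was, and their part in the result was not tested.

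Microglia replicate 1 also carried epithelial signal that replicate 2 mostly lacked. All 8 epithelial markers were detected on it, summing to 1078 scaled units, against 2 markers and 14.5 units on replicate 2. They summed to 4038 to 5647 in colon macrophages (8 detected) and 224 to 490 in liver macrophages (4 detected). The lymphocyte marker miR-150-5p was undetected in microglia, at 7.12 to 18.6 in colon and at 136 to 503 in liver macrophages. Both lists were lower on microglia replicate 2 than on any colon or liver array. Hepatocyte markers summed to 277 and 158 in microglia, 0 in colon and 2143 to 3639 in liver macrophages. Erythrocyte markers summed to 715 and 122, 51.2 to 58.8 and 158 to 172 in that order. Neuron markers summed to 51.4 to 52.9, 15.8 to 18.2 and 12.1 to 27.6, and oligodendrocyte markers to 189 to 196, 77.6 to 78.5 and 110 to 227. The part of these lists in the result was not tested. On the microglia arrays miR-221-3p was 24.5 and 25.1, a 1.02-fold difference. The 4 myeloid markers, among them miR-142-3p of blood cell lineages, were detected on all arrays and summed to 10150 to 13131 in microglia, 11819 to 14025 in colon and 6998 to 12439 in liver macrophages. Within this list miR-223-3p was lower in microglia and miR-342-3p higher in both comparisons.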

How the data were processed

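RNA of 6 sorted macrophage pools (100 ng each, Cy3) was hybridised to 1-colour Agilent miRNA arrays. The authors deposited 1 total gene signal per miRNA, an intensity on a linear scale, with its error and a detection flag per the file headers, and 0.1 where a miRNA was not detected. The software was Agilent Feature Extraction 9.1 per the submitters' processing notes. A table of 595 miRNAs, also deposited by the authors, holds log2 values, judged from their range. Its normalization and centring are not given in the sources used here; set to a floor of 1.63 log2 units, it was used as an alternative.

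After 21 control rows were left out, signals were scaled as above, set to a floor of 3.12 scaled units (the median of the arrays' lowest detected signals, 1.64 on the log2 scale) and log2 transformed. limma 3.58.1 in R 4.3.3 fitted 3 group means over all 6 arrays (3 residual and 2.20 prior degrees of freedom), 2-sided. Benjamini-Hochberg adjustment ran over every miRNA that both arrays of 1 or both compared groups detected, 414 over all comparisons, with a threshold of 0.05. The fit was tested on simulated data for the miRNAs that every array detected, with the same spread for all and no values at the floor. That test therefore does not cover miR-222-3p, which sat at the floor in microglia. For an undetected group the fold is a lower bound. The set named was the pair, its other arms, miRNAs sharing its seed, the nearest 3 genes on its chromosome, the nearest 5 profiles, and tested list members. Members and lists were chosen with earlier results of these data known. Of the array's miRNAs, 1017 matched a RefSeq mature sequence by name. Replicates are separate pools; the files hold no slide, scan date, spot or background data, so no such batch or correction was run. The alternatives were other scalings, floors, filters and fits, and each array left out.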

Additional observations from a re-analysis of the deposited data

How the results depend on the processing

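Both members were lower in microglia in all 16 (miR-221-3p) and 15 (miR-222-3p) alternatives run in each comparison. For miR-222-3p, undetected in microglia, this direction was fixed by the floor. Without the detection filter 1247 miRNAs were tested, and the changes were -1.99 and -3.31 against colon and -1.86 and -3.29 against liver macrophages. limma's adjusted p rose to 0.237, 0.1004, 0.208 and 0.0736, the highest over the alternatives. With no array left out the lowest were 0.00173, 0.00145, 0.00205 and 0.00118. More than the number of tests changed without the filter. For miR-221-3p against colon macrophages limma's unadjusted p rose from 0.00447 to 0.0203 and the SE from 0.417 to 0.449. With each array left out miR-221-3p ranged from -2.01 to -1.97 and from -2.39 to -1.31, and miR-222-3p from -3.55 to -3.16 and from -3.58 to -2.69. With a floor of 1 scaled unit the floored changes of miR-222-3p became -4.95 and -4.94. Its bounds, at least 8.21-fold and 8.14-fold, were 3.0-fold and 3.06-fold in the authors' value table, an alternative chosen after seeing the data. Between colon and liver macrophages the signs turned with spike-in scaling (-0.14 and -0.26), and for miR-222-3p also with quantile normalization (-0.034), no scaling (-0.028) and the authors' value table (-0.03), none of them called. With each array left out the range there was -0.39 to 0.69 for miR-221-3p and -0.41 to 0.47 for miR-222-3p. The offset between the pair, colon minus liver, ranged from -0.38 to 0.14. Microglia minus colon macrophages it ranged from -1.30 to -0.78 with each array left out and was -0.065 in the authors' value table; minus liver macrophages the values were -1.30 to -1.03 and -0.195.

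The number of miRNAs called, 175, 202 and 40 in the order of the comparisons, was 27, 52 and 7 without the detection filter. It ranged over 53 to 203, 117 to 221 and 19 to 109 with each array left out, with the extremes without colon replicate 1 and liver replicate 2, without microglia replicate 2 and liver replicate 2, and without colon replicate 1 and liver replicate 1. Limited to miRNAs that every array detected, it was 111 for microglia against colon and 19 for colon against liver macrophages. In the latter it was 26 with no scaling, 24 on spike-in controls and 24 with the replicate block. The replicate numbers share no stated source: deviations of same-numbered arrays correlated at 0.21, 0.07 and -0.09. With the replicate block both members were called lower in microglia (-1.99 and -3.31 against colon, adjusted p = 0.0257 and 0.0062 in limma's test), and the block changed no call of theirs. Scaling on the 75th percentile of all miRNAs was not run, since on microglia replicate 1 that percentile is the placeholder of 0.1. Detection limits what is known of miR-222-3p in microglia. The causes of these changes were not tested.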
